A study of Mus musculus with 2 samples.

Results

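The microRNA clusters Mir106b-25 and Mir17-92 were examined as 9 hairpin genes in small RNA of the mouse heart. The members were chosen by gene symbol, as the Ensembl identifiers of the count files that GENCODE M21 names Mir106b, Mir93 and Mir25 on chromosome 5 and Mir17, Mir18, Mir19a, Mir20a, Mir19b-1 and Mir92-1 on chromosome 14. All 9 were found among the 2202 microRNA genes of the files. The study holds 1 group of 2 libraries, each made from the whole heart of a male B6CASTF1/J mouse aged 2 months, with no treatment given. B6CASTF1/J is an F1 hybrid cross of the laboratory strain C57BL/6J with the wild-derived strain CAST/EiJ. The labels give the libraries biological replicate numbers 1 and 2 and different animal numbers but a common donor identifier, so whether they come from separate animals is not settled by the labels, and their spread may be technical.

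Clusters of this kind are transcribed as a long primary RNA that carries several hairpins, which Drosha cuts out and Dicer trims to mature microRNAs of either arm. The seed, bases 2 to 8 of the mature microRNA, is the part that pairs with target messages, so that microRNAs with the same seed share many targets. The Mir17-92 cluster is known as a target of MYC and as an oncogenic cluster, it represses cell cycle inhibitors and proapoptotic proteins, and mice that lack it die around birth with heart septal defects and small lungs. The Mir106b-25 cluster is its paralog in an intron of Mcm7, which encodes a subunit of the replicative DNA helicase, and a further paralog, Mir106a-363, lies on the X chromosome.

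The mature sequences are shown first, because the seed families and the differences between close relatives are what the counts below are set against. All 9 members were matched by symbol to RefSeq sequences on GRCm38.p6. The arm printed for each is the one known as its main product, 5′ to 3′, with the seed in capitals. The first family holds 4 members, of both clusters, with the seed AAAGUGC.
miR-106b-5p: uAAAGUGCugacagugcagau
miR-93-5p: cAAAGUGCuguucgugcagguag
miR-17-5p: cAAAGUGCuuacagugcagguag
miR-20a-5p: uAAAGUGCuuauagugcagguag
The miR-18 seed is AAGGUGC, and Mir18 is the 1 member that carries it.
miR-18a-5p: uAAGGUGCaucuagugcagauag
The miR-19 family holds 2 members, both on chromosome 14, with the seed GUGCAAA.
miR-19a-3p: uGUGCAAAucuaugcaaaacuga
miR-19b-3p: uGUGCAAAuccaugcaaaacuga
The miR-92 family holds 1 member in each cluster, with the seed AUUGCAC. In mice, miR-25 is known to repress the calcium pump SERCA2a of heart muscle and miR-92a to limit the growth of new vessels.
miR-25-3p: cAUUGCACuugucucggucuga
miR-92a-3p: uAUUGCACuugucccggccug
The mature arms are 21 to 23 bases long, so that the counts of different hairpins were compared without division by length. Counting positions from 1 at the 5′ end, miR-17-5p and miR-20a-5p differ by C1U and C12U, and miR-19a-3p and miR-19b-3p differ by U11C. Over the 21 bases of miR-106b-5p, miR-17-5p has the same base at 18. The last 3 bases are uag in miR-93-5p, miR-17-5p, miR-20a-5p and miR-18a-5p and gau in miR-106b-5p. The first 4 are annotated at 23 bases and miR-106b-5p at 21, so these ends lie at different positions.

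A pair of members shares its mature sequence with a hairpin of the X-linked paralog, and this decides which of their reads could be counted. The windows below show these hairpins, as RNA on GRCm38.p6, with the longest stretch common to both copies in capitals and 5 bases on either side.
Mir92-1 (GRCm38.p6 chr14:115044470-115044501, plus strand): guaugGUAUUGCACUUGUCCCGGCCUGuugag
Mir92-2 (GRCm38.p6 chrX:52741849-52741880, minus strand): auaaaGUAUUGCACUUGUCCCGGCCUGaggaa
Mir19b-1 (GRCm38.p6 chr14:115044351-115044385, plus strand): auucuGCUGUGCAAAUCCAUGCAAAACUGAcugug
Mir19b-2 (GRCm38.p6 chrX:52741986-52742020, minus strand): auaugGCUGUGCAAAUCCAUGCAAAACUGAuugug
The whole of miR-92a-3p lies within the 22 shared bases of Mir92-1 and Mir92-2, and the whole of miR-19b-3p within the 25 shared bases of Mir19b-1 and Mir19b-2. The files count a read with several places in the genome in no gene. A read inside the capitals is such a read, so the counts of Mir92-1 and Mir19b-1 come from reads that reach past these bases or from the other arm. The files do not split the arms, so these counts do not give the level of miR-92a-3p or miR-19b-3p. The mature sequences of the other 7 members were in no other hairpin of the RefSeq table, with at most 17 bases shared, between miR-18a-5p and Mir18b.

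The 2 clusters are compact. Mir106b, Mir93 and Mir25 lie in this order of transcription on the minus strand of chromosome 5, from 138165818 down to 138165321 (mm10), with 126 and 118 bases between neighbours. They lie between exons 13 and 14 of the Mcm7 transcript Mcm7-201, and Mir93 and Mir25 also fall in exon 1 of an annotated transcript that retains the intron. The 6 hairpins of Mir17-92 lie on the plus strand of chromosome 14 from 115043671 to 115044506, 35 to 96 bases apart, all in exon 2 of the long noncoding RNA Mir17hg. None of the 9 had a read on the opposite strand in either library, and their counts with and without regard to strand were the same.

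**Figure D1:**
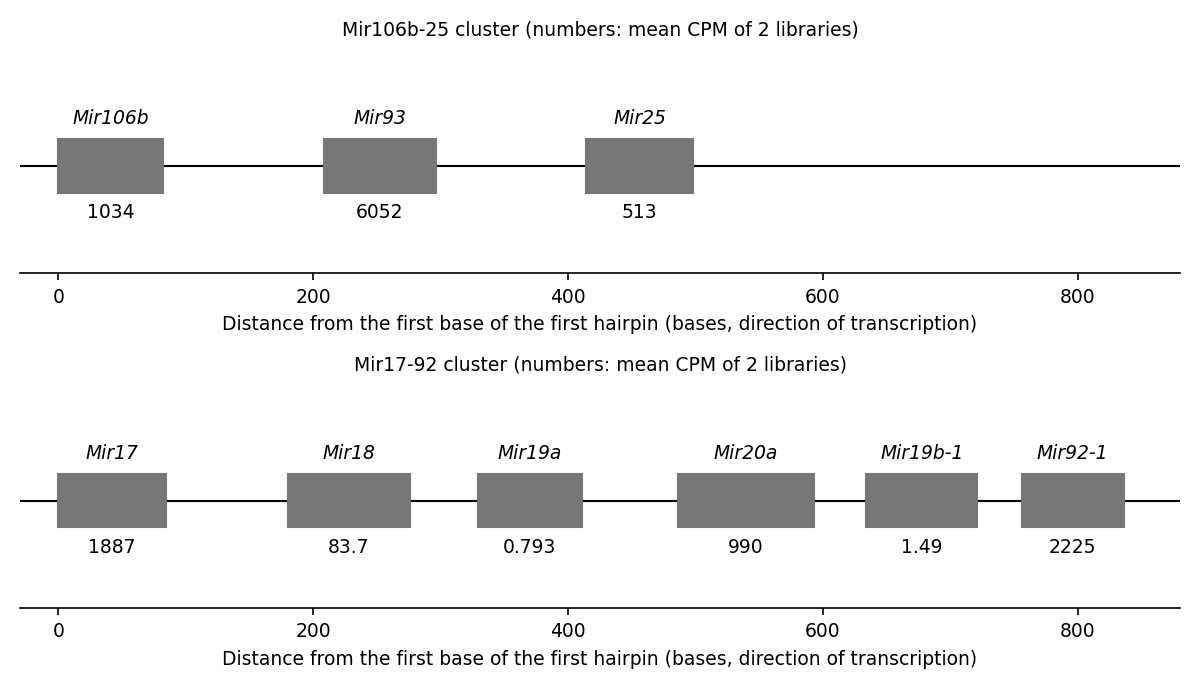
Hairpins of the Mir106b-25 cluster (top) and the Mir17-92 cluster (bottom), drawn to scale as boxes along the distance in bases from the first base of the first hairpin, with the mean CPM (counts scaled to a library size of 1000000) of the 2 libraries under each box. In Mir17-92 the third and the fifth hairpin stand at 0.793 and 1.49 CPM between neighbours that reach 2225 CPM.

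Replicate 1 held 10362589 reads and replicate 2 held 10483233 reads, of which 3650782 and 3810675 were counted on the strand of a microRNA gene. CPM values are counts scaled to a library size of 1000000 of these counts. Reads with several places in the genome made up 47.2% ± 1.07 of the reads (SD, n = 2), and no member gains from them. The heart label was checked with the myosin-intron genes Mir208a and Mir499, the first with 1329 CPM in replicate 1 and 4265 CPM in replicate 2 and the second with 2601 and 2507 CPM. A count is the sum of both arms of a hairpin, and in whole tissue fewer cells of a type and less RNA per cell cannot be told apart.

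Mir93 (ENSMUSG00000065527.1, chromosome 5, 138165523 to 138165610) was the most abundant member in both libraries. Its 30115 and 14688 counts in replicates 1 and 2 were 8249 and 3854 CPM, a mean of 6052 CPM ± 3107 (SD, n = 2), and it ranked 22nd and 30th among all genes. Its upstream neighbour Mir106b (ENSMUSG00000065514.1, chromosome 5, 138165737 to 138165818), with the same seed, had 745 CPM in replicate 1 and 1323 CPM in replicate 2, a mean of 1034 CPM ± 409. Mir106b was thus lower in the library where Mir93 was higher. Mir25 (ENSMUSG00000065394.1, chromosome 5, 138165321 to 138165404), at the 3′ end, had 553 and 473 CPM in replicates 1 and 2, a mean of 513 CPM ± 56.9, the lowest of this cluster.

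In the Mir17-92 cluster, Mir17, Mir20a and Mir92-1 had high counts, and Mir18, Mir19a and Mir19b-1 had low ones. Mir17 (ENSMUSG00000065508.1, chromosome 14, 115043671 to 115043754), its first hairpin, had 9035 counts in replicate 1 and 4953 in replicate 2, which were 2475 and 1300 CPM, a mean of 1887 CPM ± 831 (SD, n = 2). Mir18 (ENSMUSG00000065403.1, chromosome 14, 115043851 to 115043946), 96 bases further on, had 317 and 307 counts, or 86.8 and 80.6 CPM in replicates 1 and 2. It was far below both of the hairpins of the miR-17 seed that flank it. Mir20a (ENSMUSG00000065442.1, chromosome 14, 115044157 to 115044263) had 1275 CPM in replicate 1 and 706 CPM in replicate 2, a mean of 990 CPM ± 403. Mir92-1 (ENSMUSG00000076062.1, chromosome 14, 115044427 to 115044506), the last hairpin, had 2294 and 2155 CPM in replicates 1 and 2, a mean of 2225 CPM ± 97.9. It was the most counted hairpin of this transcript on average, although reads within its mature sequence were not counted for it.

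The miR-19 hairpins had almost no counts. Mir19a (ENSMUSG00000065416.1, chromosome 14, 115044000 to 115044081) had 1 count in replicate 1 and 5 in replicate 2. Mir19b-1 (ENSMUSG00000076256.1, chromosome 14, 115044305 to 115044391) had 8 counts in replicate 1, against 3 in replicate 2. The exact Clopper-Pearson 95% intervals of Mir19a ran from 0.00693 to 1.53 CPM for replicate 1 and from 0.426 to 3.06 CPM for replicate 2. Mir20a, which lies between them on the same transcript, had 4655 and 2689 counts. The mature sequence of Mir19b-1 is shared with Mir19b-2, as shown above, and that of Mir19a was in no other RefSeq hairpin. The part of such sharing in the low counts was not tested. No correction was made for differences between sequences in recovery, so that an order of hairpins is an order of counts.

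**Figure D2:**
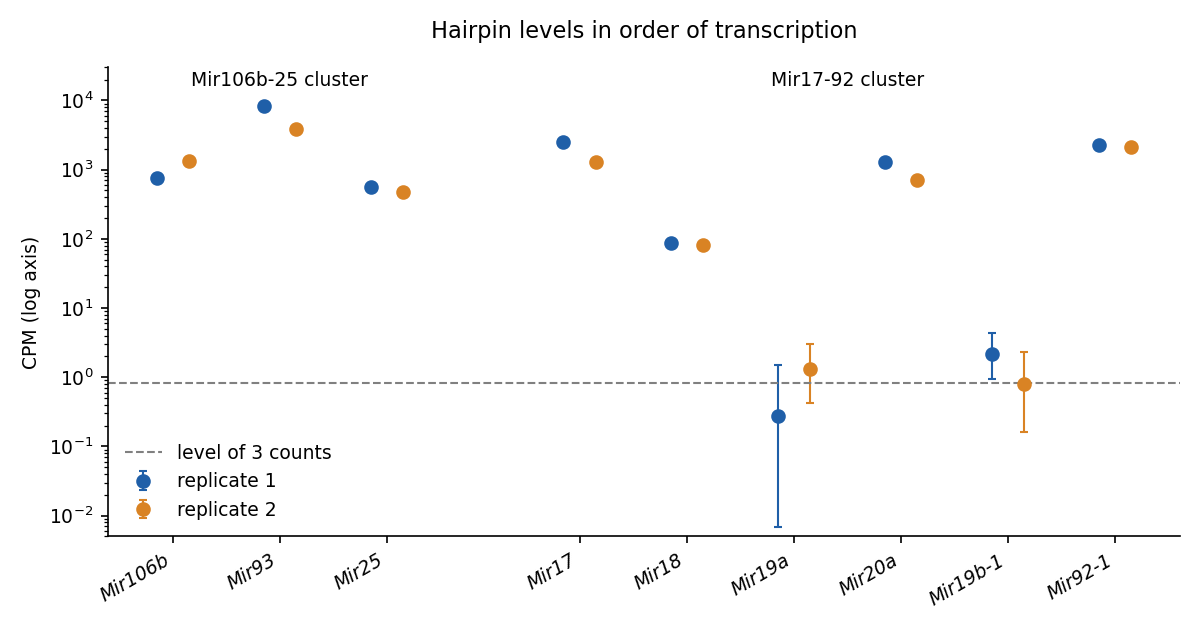
Level of each member in CPM on a log axis, in the order of transcription, with replicate 1 on the left and replicate 2 on the right of each pair. Bars are exact Clopper-Pearson 95% intervals, which cover counting error only, and the dashed line is the level of 3 counts in replicate 1 (0.822 CPM). Mir93 leads both libraries, and Mir19a and Mir19b-1 lie near the line.

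By mean level the order was Mir93, Mir92-1, Mir17, Mir106b, Mir20a, Mir25, Mir18, Mir19b-1 and Mir19a. The values of the libraries overlapped between Mir92-1 and Mir17, between Mir17 and Mir106b, between Mir106b and Mir20a, and between Mir19b-1 and Mir19a, so these neighbours in the order did not differ beyond their spread. The other neighbours did not overlap. A level of 2 CPM or more in both libraries was reached by 7 of the 9 members, against 15.3% of all 2202 genes. The other 2 were Mir19a and Mir19b-1.

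Within the Mir106b-25 cluster, Mir93 held 86.4% of the counts in replicate 1 and 68.2% in replicate 2, with Clopper-Pearson 95% intervals of 86.0 to 86.8 and of 67.6 to 68.8. Mir106b held 7.80% (7.52 to 8.09) in replicate 1 and 23.4% (22.9 to 24.0) in replicate 2, and Mir25 held 5.79% and 8.36%. The cluster was thus led by Mir93 in both libraries, with shares that differed far beyond counting error. The level of Mir93 was 11.1 times that of Mir106b in replicate 1 and 2.91 times in replicate 2, and their log2 ratio averaged 2.51 ± 1.36 (SD, n = 2).

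Within the Mir17-92 cluster, Mir17 held 40.4% of the counts in replicate 1 and 30.6% in replicate 2, and Mir92-1 held 37.4% and 50.8%. The leading hairpin therefore differed between the libraries, Mir17 in replicate 1 and Mir92-1 in replicate 2. Mir20a held 20.8% and 16.6%, Mir18 held 1.42% and 1.90%, and the miR-19 hairpins held at most 0.0357% each. Mir17 and Mir20a kept nearly the same ratio, as the level of Mir17 was 1.94 times that of Mir20a in replicate 1 and 1.84 times in replicate 2. With 2 libraries an exact sign-flip permutation test of such a ratio cannot give a two-sided p below 0.5, so no ratio within a library was tested.

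**Figure D3:**
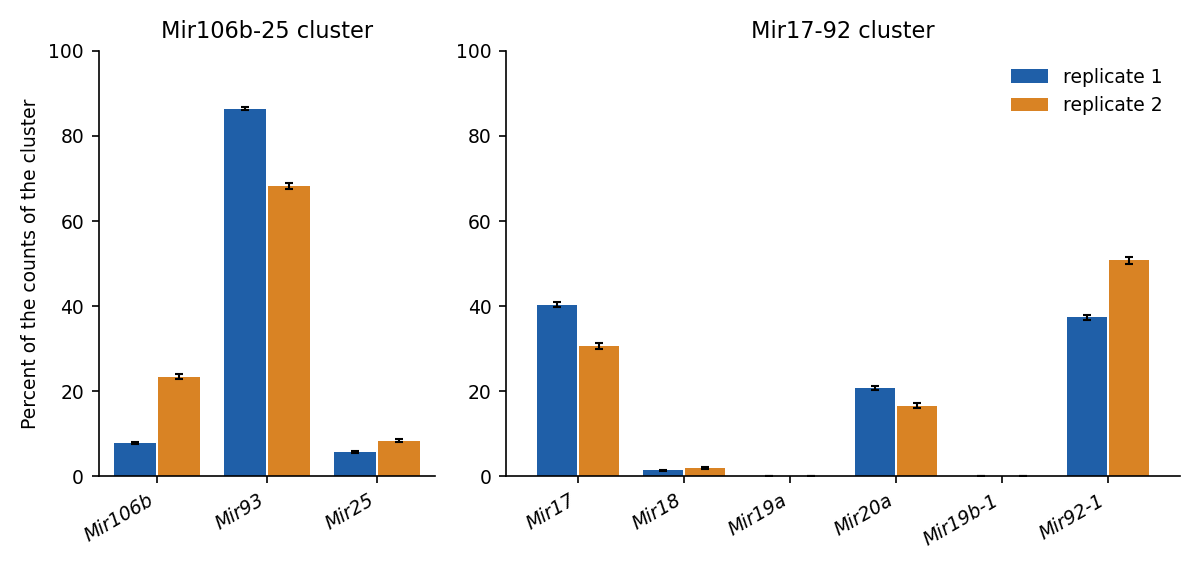
Percent of the counts of each cluster held by each of its hairpins, for replicate 1 (left bar) and replicate 2 (right bar), with exact Clopper-Pearson 95% intervals. Mir93 holds 86.4% and 68.2% of its cluster, and no hairpin of Mir17-92 holds more than 50.8%.

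Summed over hairpins, the Mir106b-25 cluster stood at 9547 CPM in replicate 1 and 5650 CPM in replicate 2, a mean of 7599 CPM ± 2755 (SD, n = 2). The Mir17-92 cluster stood at 6133 and 4243 CPM in replicates 1 and 2, a mean of 5188 CPM ± 1336. The cluster with fewer hairpins was the higher one, at 1.56 times the level of the other in replicate 1 and 1.33 times in replicate 2, and the log2 ratio averaged 0.53 ± 0.16. This order rested on 1 hairpin. With Mir93 left out, a choice made after the values were seen, the log2 ratio of Mir106b and Mir25 together over the Mir17-92 cluster was -1.74 ± 0.71. It also compares counts from which reads within miR-92a-3p and miR-19b-3p are missing on the Mir17-92 side.

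Grouped by seed, the miR-17 seed held most of the members' counts. Its 4 hairpins stood at 12744 CPM in replicate 1 and 7183 CPM in replicate 2, a mean of 9963 CPM ± 3932 (SD, n = 2), which was 81.3% and 72.6% of the counts of all 9 members. The miR-92 seed followed at 2847 and 2628 CPM in replicates 1 and 2, a mean of 2737 CPM ± 155, and the miR-19 seed had 9 and 8 counts. The Mir106b-25 cluster supplied 71.3% ± 1.06 of the counts of the miR-17 seed, and the Mir17-92 cluster 28.7% ± 1.06 (SD, n = 2). For the miR-92 seed the Mir106b-25 cluster supplied 18.7% ± 1.02, and the Mir17-92 cluster 81.3% ± 1.02. In these counts the clusters thus led different seed families. These divisions differed little between the libraries, while the single hairpins Mir93 and Mir106b varied far more and in opposite directions. The sums are over whole hairpins with both arms, and reads within miR-92a-3p and miR-19b-3p were not counted. They are therefore not levels of the seeds themselves, above all for miR-92, where Mir92-1 holds most of the counts.

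The paralog Mir106a-363 on the X chromosome had few counts beside the 2 clusters. The sum over its 6 genes was 221 and 157 CPM in replicates 1 and 2, most of it from Mir92-2, with 674 and 524 counts. Mir106a, whose mature arm differs from that of Mir17 by U10A alone, had 81 and 41 counts. Mir20b, which differs from Mir20a by U1C and U10C, had 43 and 25 counts, and Mir363 had 8 and 7. No read was counted for Mir18b or Mir19b-2. A count of 0 leaves room for 0.822 CPM in replicate 1 and for 0.787 CPM in replicate 2, and it says nothing of Mir19b-2, whose mature sequence is shared with Mir19b-1.
miR-106a-5p: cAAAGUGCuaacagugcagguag
miR-20b-5p: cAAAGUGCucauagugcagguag
These are shown because they differ from their counterparts on chromosome 14 by 1 or 2 bases. Mir17 had 112 and 121 times the level of Mir106a in replicates 1 and 2, and Mir20a had 108 times the level of Mir20b in both. The small counts of the X-linked genes limit the precision of these ratios. Whether all counts of Mir106a and Mir20b come from these genes, and none from Mir17 or Mir20a, was not tested. Mir92-1 had 12.4 and 15.7 times the level of Mir92-2, counted over reads that tell them apart.

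In these counts, other annotated genes with the seeds of the miR-17 and miR-92 families held a small part. Reads within miR-92a-3p, which Mir92-2 shares with Mir92-1, were counted for neither gene, so the part of Mir92-2 in them is not known. The seed AAAGUGC was found in 7 genes of the count files, and the members held 99.7% of their counts in replicate 1 and 99.8% in replicate 2. The seed AUUGCAC was also found in 7 genes, and of their whole-hairpin counts, which lack reads within miR-92a-3p, the members held 91.1% and 92.0%. Beside Mir92-2, the rest came from Mir92b, found by this search, with 193 and 143 counts in replicates 1 and 2, and from Mir32, with 139 and 200 counts, and from Mir363. Mir367, a gene known from embryonic stem cells, had none.

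For each gene the pair of counts was tested two-sided with an exact binomial test, given TMM-scaled library sizes, and p-values were adjusted by the Benjamini-Hochberg method over all 320 genes past the low-count filter. This compares these libraries and not conditions, and the p-values weigh counting error alone. Of the 9 members 7 passed the filter, and at an adjusted p under 0.05 there were 5 higher and 1 lower in replicate 1. Over all tested genes 64.4% were called, 33.8% higher and 30.6% lower, so that a call is the usual outcome at this depth. The median absolute log2 ratio was 0.82 over the 7 members and 0.44 over the 320 genes, and the median log2 ratio was 0.24 over the members and -0.02 over all genes.

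The members fell into different sizes of change. Mir93 was higher in replicate 1 with a log2 ratio of 1.11, Mir17 with 0.94 and Mir20a with 0.87. These 3 carry the miR-17 seed and lie on both transcripts. Mir106b, of the same seed, was lower in replicate 1, at -0.82 on the log2 scale (adjusted p = 2.63e-129, exact binomial test), and each of the 5 alternative scalings, filters and counting columns kept this direction and call. Mir25 was higher by 0.24 (adjusted p = 7.13e-07, exact binomial test). Mir92-1 was higher by 0.10 (adjusted p = 9.94e-06, exact binomial test), but this call was lost without the low-count filter, at a log2 ratio of 0.03 and an adjusted p of 0.485, and over the alternatives its adjusted p ran from 1.06e-07 to 0.485. Mir18 had a log2 ratio of 0.12 and was not called (adjusted p = 0.389, exact binomial test).

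**Figure D4:**
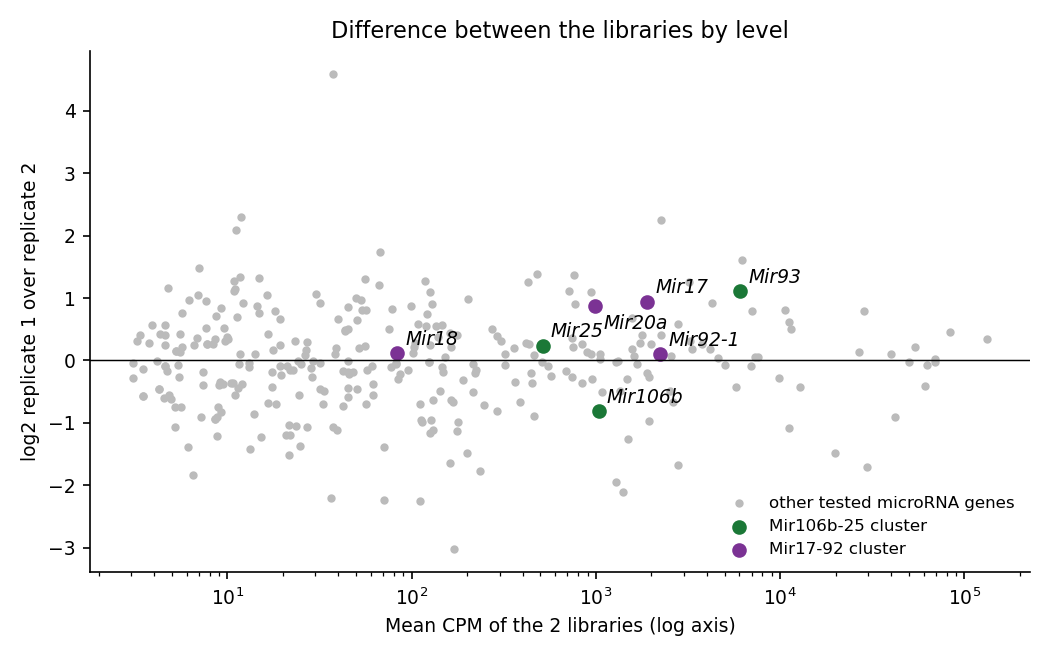
Log2 ratio of replicate 1 over replicate 2 against the mean CPM (log axis) for the 320 genes past the low-count filter, with the members of Mir106b-25 and Mir17-92 in colour. Mir93, Mir17 and Mir20a lie near 1, Mir106b at -0.82, and Mir18, Mir92-1 and Mir25 between 0.10 and 0.24.

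The paralogs on the X chromosome were read beside these values. Mir106a had a log2 ratio of 1.05 and Mir20b one of 0.85, both called higher in replicate 1 (exact binomial test, adjusted p = 0.000183 and 0.0332), and Mir92-2 one of 0.44. Mir106a and Mir20b carry the miR-17 seed and end in the bases gguag, as do Mir93, Mir17 and Mir20a. Of the 320 genes, 287 have an annotated mature arm in the RefSeq table, and 5 of these have an arm with this ending. They are the 5 genes just named, all higher in replicate 1 with log2 ratios of 0.85 to 1.11. miR-106b-5p, annotated at 21 bases, lacks the ending. miR-18a-5p also ends in uag but lacks gguag, and Mir18, with a log2 ratio of 0.12, was not called. A shorter ending of uag would thus take in Mir18. The ending and its length were chosen after the values were seen, the 5 genes share much of their sequence, and its part in the difference was not tested. Whether Mir106a and Mir20b give counts independent of those of Mir17 and Mir20a was not tested either.

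A ratio of 2 hairpins in the same library does not depend on library size, and it was used to ask how far hairpins of 1 transcript moved together. Among the 7 members at 10 CPM or more in both libraries there are 21 pairs, and the difference between libraries in their log2 ratio had a median of 0.82 in absolute value. The 9 pairs on the same transcript also had a median of 0.82, with a range of 0.02 to 1.93. The closest of these were Mir18 and Mir92-1, at 0.02, and Mir17 and Mir20a, at 0.08. The widest was Mir93 and Mir106b, at 1.93, which lie 126 bases apart in the same intron. Among pairs on different transcripts, the 5 that share a seed had a median of 0.24 and the 7 that do not had a median of 0.92. Of the 7 pairs with the same seed on any transcript, the 4 without Mir106b ranged from 0.08 to 0.24 and the 3 with Mir106b from 1.68 to 1.93. These pairs share hairpins and libraries, and the split by Mir106b was made after the values were seen, so they are a description only.

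Neighbouring hairpins across the genome gave the scale for these differences. Among all hairpins at 10 CPM or more in both libraries, 68 pairs were successive hairpins of 1 strand within 10 kb of each other, and the median absolute difference of their log2 ratio was 0.74, or 0.68 over the 63 pairs without a member. The 5 such pairs among the members ranged from 0.75 to 1.93, with a median of 0.82. Mir93 and Mir106b ranked 3rd of the 68 by size, and the other 4 ranked between 22nd and 34th. The proportions of neighbouring hairpins thus often differed between the libraries. The members' pairs other than Mir93 and Mir106b all lay above the median of the 68 pairs, though not far from it.

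**Figure D5:**
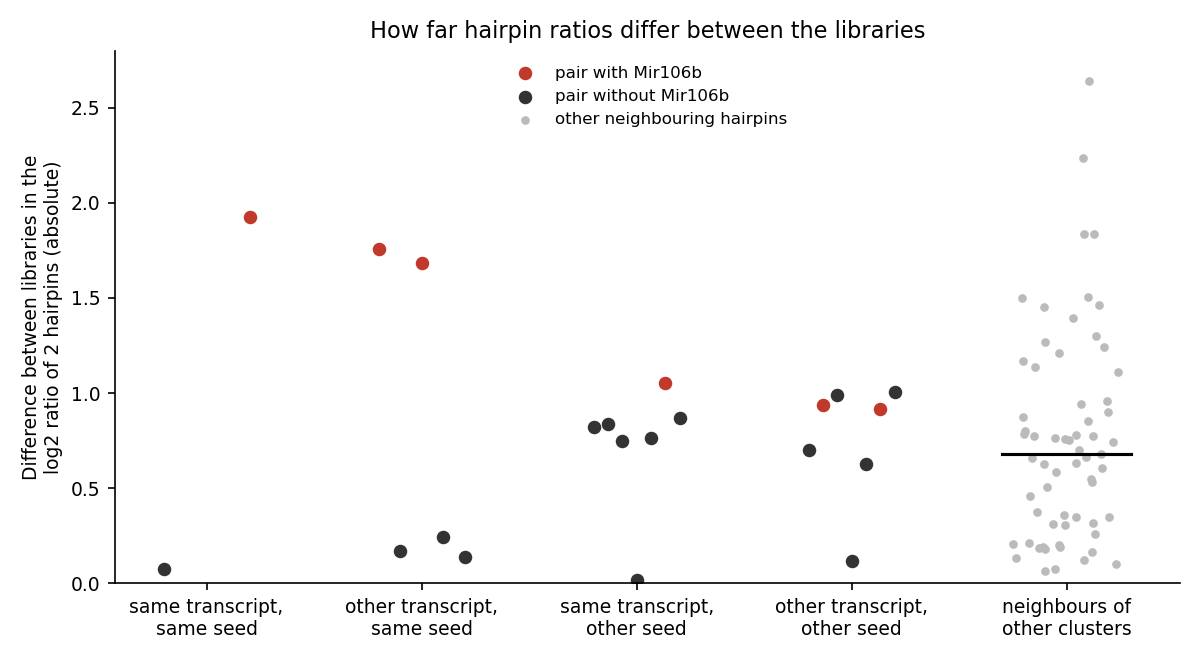
Absolute difference between replicate 1 and replicate 2 in the log2 ratio of 2 hairpins, for the 21 pairs of members by shared transcript and shared seed (dark points, with pairs that include Mir106b in red) and for neighbouring hairpins of other clusters (grey, with the median as a line). The 3 pairs with the same seed that include Mir106b stand between 1.68 and 1.93, and the 4 that do not stand at or below 0.24.

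Markers of cell types that the whole heart contains also differed between the libraries. The leukocyte genes Mir142, Mir150, Mir155, Mir223 and Mir146 had a sum of 10633 CPM in replicate 1 and of 8667 CPM in replicate 2, and 5 of 5 were called higher in replicate 1, where 33.8% of all tested genes were called higher and 30.6% lower. The cardiac genes Mir208a, Mir208b and Mir499 had a sum of 3954 CPM in replicate 1 and of 6890 CPM in replicate 2. Of these 3, Mir208a and Mir208b were called lower in replicate 1, with log2 ratios of -1.67 and -2.23, and Mir499 was called higher, with 0.07, a call lost under 3 of 5 alternatives, with a turn to -0.01 without the low-count filter (adjusted p = 0.842, exact binomial test). The endothelial gene Mir126a stood at 52212 and 70228 CPM in replicates 1 and 2 and was called lower in replicate 1, at -0.41 on the log2 scale. In the counts without regard to strand Mir126a kept this direction, at -0.89, but was not called (adjusted p = 0.0787, exact binomial test). That column leaves out reads that fit several genes, which were 8.31% and 8.06% of the reads of replicates 1 and 2. On the strand of the gene there were 0 such reads. The lost call therefore does not weigh the same reads, and the part of this loss in it was not tested. The smooth muscle genes Mir143 and Mir145a had sums of 54611 and 53284 CPM in replicates 1 and 2, with Mir145a called higher at 0.92 and Mir143 called lower at -0.02 on the log2 scale, a call lost with DESeq2 size factors (adjusted p = 0.588, exact binomial test). The erythroid genes Mir144, Mir451a and Mir486 had sums of 3222 and 2960 CPM in replicates 1 and 2, with Mir451a called higher at 0.68 and Mir144 and Mir486 called lower at -0.20 and -0.50. All 14 of these marker genes had counts in both libraries. Their part in the differences of the members was not tested.

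For the most counted hairpin of each cluster, the non-member genes with the most similar levels were found as the smallest Euclidean distance in log2(CPM + 0.5) over the 2 libraries. Nearest to Mir93 were Mir140, with 9270 CPM in replicate 1 and 3073 CPM in replicate 2 at a distance of 0.37, and then Mir99b at 0.44 and Mir145a at 0.69. Nearest to Mir92-1 was Mir221, with 2559 and 1951 CPM at a distance of 0.21, followed by Mir98 at 0.25 and Mir499 at 0.28. With 2 libraries this likeness is one of level.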

How the data were processed

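Small RNA of whole heart was sequenced as 2 libraries of 1 group, and the labels limit the library to short fragments. The authors deposited raw read counts per microRNA gene, placed on mm10 with the GENCODE M21 annotation per the text deposited with the files. The aligner and its settings are not given in the sources used here. Of the 3 count columns, the one for the strand of the gene was used, and the 4 rows without a gene entered no library size and no test, so that 35.2% and 36.4% of the reads of replicates 1 and 2 were used. All 2202 identifiers matched GENCODE M21, which gave symbols, positions and hosts. CPM values, shares, Clopper-Pearson intervals and log2 ratios with a pseudocount of 0.5 were computed with Python 3.11.15 and scipy 1.17.1. These intervals and the floor of 3 counts cover counting error only. The libraries were compared by an exact binomial test with TMM library sizes and the low-count filter of edgeR 4.0.16 in R 4.3.3, at an adjusted p of 0.05. DESeq2 1.42.0 gave alternative size factors. The test was first run on simulated counts that held set changes and counting error alone. That check therefore does not cover other sources of difference between libraries. A test of edgeR between groups could not be fitted, since there is 1 group. Genes named are the 9 members, their paralogs, genes of the same seeds, markers, and the 3 genes most alike for each cluster. Members and lists were chosen with earlier results of these data known.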

Additional observations from a re-analysis of the deposited data

How the results depend on the processing

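Without replicate 1 or without replicate 2, the Mir106b-25 cluster ran from 5650 to 9547 CPM, the Mir17-92 cluster from 4243 to 6133 CPM, their log2 ratio from 0.41 to 0.64, and the seed families from 7183 to 12744 CPM (miR-17), 80.6 to 86.8 CPM (miR-18), 2.10 to 2.47 CPM (miR-19) and 2628 to 2847 CPM (miR-92). Counting without regard to strand shrinks the denominator and gave 6739 CPM for Mir17-92, 109 for miR-18, 2.96 for miR-19 and 3551 for miR-92. With all uniquely mapped reads as the denominator, miR-18, miR-19 and miR-92 stood at 73.8, 2.01 and 2413 CPM, and with the most abundant gene left out of it at 96.6, 2.64 and 3159 CPM. The log2 ratio of the clusters was -1.74 with Mir93 left out, an alternative added after the data were seen, and kept its sign in the other alternatives run. The members called higher in replicate 1 were 5, or 4 without the low-count filter, and 1 was lower throughout. Without that filter Mir92-1 had a log2 ratio of 0.03 and an adjusted p of 0.485 (exact binomial test). The TMM-scaled library size of replicate 1 was then 1.00 times that of replicate 2, against 0.949 times with the filter. The part of this scaling in the lost call was not tested. Over all genes, leaving out that filter gave 95 higher and 118 lower of 722 tested, against 108 higher and 98 lower of 320 tested with it. A smaller share of the tested genes was thus called without the filter. The members tested were 9 without the filter and 7 with it. The median difference over all neighbouring pairs was 0.67 for hairpins at most 1 kb apart and 0.75 without strand. The counts of Mir19a and Mir19b-1, 1 to 8 a library, leave wide counting intervals. No paired analysis was possible because there is 1 group, in which no sample shares a replicate number with another.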

Other observations

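MicroRNA genes known from embryonic stem cells, listed as related to the miR-17 seed through the core AAGUGC, had few counts in the adult heart. Whether the mature microRNAs of each listed gene carry this core was not checked. The 11 listed genes of the Mir290 and Mir302 clusters summed to 38 counts in replicate 1 and 65 in replicate 2, or 10.4 and 17.1 CPM, and 4 of them had none. Mir302d had 16 and 18 counts, Mir302a 10 and 16, Mir302b 3 and 15, and Mir294 4 and 9 in replicates 1 and 2. Of these, Mir302a and Mir302d passed the low-count filter, and neither was called in the exact binomial test between the libraries (adjusted p = 0.416 and 0.891).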
